A study of Dendroctonus valens with 12 samples.

Results

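Mature larvae of the red turpentine beetle, Dendroctonus valens, were compared with adults of the same species, both collected in January. The comparison took the 3 January larvae and the 3 January adults, 6 of the 12 RNA-seq libraries of the study, and it was set by stage and month, not by any measured value. The study sequenced whole larvae and whole adults of this bark beetle in January and in May, with 3 libraries in each of 4 groups, to follow gene expression in winter. Each library came from a single insect taken in the field, so the spread between libraries is the spread between individuals. The January insects carry the label cold and the May insects the label normal, and no treatment was given to either. The sex of the adults is not in the labels, so a difference between the sexes cannot be told apart from the spread among adults. Expression was available as FPKM, the number of sequenced fragments adjusted for unigene length and library size, for 58956 unigenes of an assembly made without a genome. Of these, 18917 were tested, those with an FPKM of at least 1 in at least 3 of the 6 libraries after a set of 4823 unigenes had been left out that may be of another organism. Unigenes are given by their assembly number, without the common prefix, and a gene name is that of the best match in the part of the study's annotation used here.

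Bark beetles are holometabolous insects. The larva is a legless feeding stage with a soft cuticle that lives in the inner bark, while the adult has a hard cuticle, wings, flight muscle, jointed legs and, in time, reproductive organs. In the cold months both stages of this beetle stay under the bark of the trunk base and roots. In other insects, overwintering draws on fat stores, on changes in the saturation of membrane lipids and on surface hydrocarbons that limit water loss.

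The 6 libraries differed within each stage. The number of unigenes with an FPKM of at least 1 was 18600, 15028 and 20948 in larvae 1, 2 and 3, against 23576, 23690 and 20437 in adults 1, 2 and 3. The ranges overlapped, and the difference of -4375.67 unigenes had an exact permutation p of 0.2, two-sided, where 0.1 is the smallest p that 3 against 3 can give. The left-out unigenes were chosen for their presence in larva 3 and near-absence in larvae 1 and 2, so their contrast among larvae is set by the choice and only their level in the adults is a measurement. They held 3.19e-05%, 0.00669% and 4.88% of the summed FPKM of larvae 1, 2 and 3, against 9.51%, 6.01% and 3.02% in adults 1, 2 and 3. A wider set, also chosen for presence in larva 3 and near-absence in larva 1, held another 0.000248%, 0.163% and 11.1% in the larvae, against 16.7%, 11.5% and 6.82% in the adults. The nematode matches were not chosen by level. Of 59 unigenes whose best match is a nematode, 7, 14 and 35 reached an FPKM of 1 in larvae 1, 2 and 3, against 36, 32 and 37 in adults 1, 2 and 3. Their summed FPKM was 82.8, 556 and 1240.03 in the larvae, against 1443, 2507 and 1417 in the adults. Across the 18917 unigenes the Pearson correlation of log2(FPKM + 1) was 0.88 between larvae 1 and 2, and 0.56 and 0.64 between larva 3 and these larvae, against 0.74 to 0.80 between larva 3 and the adults. Over the 1379 tested unigenes whose best match is a Dendroctonus beetle, larva 3 correlated at 0.89 with both other larvae and at 0.70 to 0.82 with the adults. These correlations run across genes, which are not independent replicates. Among the adults, adult 3 stood apart in the same 1379 unigenes, at 0.69 and 0.80 with adults 1 and 2, which correlated at 0.91. Beyond the left-out unigenes, what larva 3 shares with the adults entered every test below unless its removal is named.

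**Figure D1:**
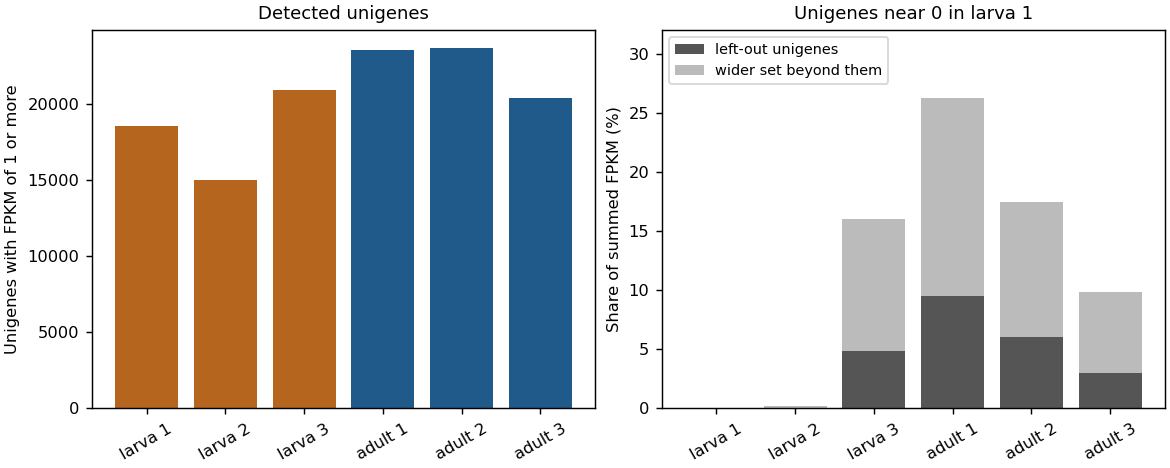
Unigenes detected in each of the 6 January libraries (left, number with an FPKM of at least 1) and the share of summed FPKM in unigenes that are near 0 in larva 1 (right, percent, left-out unigenes in dark grey and the wider set beyond them in light grey). Bars are single insects. Both sets were chosen for presence in larva 3 and near-absence in larva 1, so the contrast among larvae is set by that choice, and the adults carry them at 3.02% to 9.51% and 6.82% to 16.7%.

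Only a handful of unigenes separated the stages beyond the spread between insects. At an adjusted p under 0.01 and a log2 fold change of at least 1 in size, 8 unigenes differed between January larvae and January adults, 0.0423% of those tested, 3 higher in larvae (0.0159%) and 5 lower (0.0264%). The test was limma with trend on scaled log2(FPKM + 1), two-sided, with Benjamini-Hochberg adjustment over all 18917 unigenes. At an unadjusted p under 0.05 there were 938 unigenes higher in larvae (4.96%) and 2484 lower (13.1%), together 18.1%. Among the 1379 Dendroctonus matches the balance was reversed, with 102 higher in larvae and 39 lower. None of the 8 has a match in the annotation used here, so nothing can be said of what they encode, and they are named because they passed, after their values were seen. In whole insects, fewer cells of a type and less RNA per cell cannot be told apart, here and in all results that follow.

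Among the 3 that were higher in larvae, DN18275_c0_g1 had FPKM of 901, 2668 and 2113 in larvae 1, 2 and 3 and was listed at 0 in all 3 adults (adjusted p = 0.00259, limma). DN3584_c0_g1 had 103, 58.0 and 73.1 FPKM in the larvae and was also listed at 0 in every adult (adjusted p = 0.00845, limma). DN19009_c0_g1 had 151, 116 and 218 FPKM in the larvae, against 0.42, 0.39 and 0.05 FPKM in the adults, a log2 fold change of 6.98 ± 0.48 (SE, adjusted p = 0.00524, limma). In all 3 the lowest larva lay far above the highest adult, and larva 3 sat with the other larvae.

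The 5 that were lower in larvae were abundant adult transcripts. DN21283_c0_g2 had 1.66, 1.16 and 0.89 FPKM in larvae 1, 2 and 3, against 2807, 2724 and 4225 FPKM in adults 1, 2 and 3, a log2 fold change of -10.50 ± 0.46 (SE) with the lowest adjusted p of all, 0.00144 (limma). DN23249_c0_g3 had 1.47, 0.74 and 1.80 FPKM in the larvae, against 692, 813 and 928 FPKM in the adults (log2 fold change -8.47 ± 0.44, adjusted p = 0.00235, limma). DN21212_c0_g1 had 0.47, 1.76 and 0.79 FPKM in the larvae, against 679.9, 729.9 and 1322 FPKM in the adults (log2 fold change -8.78 ± 0.59, adjusted p = 0.00508, limma). In each of these unigenes the 3 insects of a stage lay close together beside the gap between the stages, with adults averaging 607 times the larvae for DN23249_c0_g3 and 904 times for DN21212_c0_g1. DN24066_c1_g1 had 2.58, 0.36 and 0.65 FPKM in the larvae, against 183, 171 and 171 FPKM in the adults (log2 fold change -6.50 ± 0.50, adjusted p = 0.00854, limma). DN19219_c0_g1 was listed at 0 in all 3 larvae and had 234, 416 and 589 FPKM in the adults (adjusted p = 0.00508, limma). Larva 3 was the highest larva for only 1 of these 5, DN23249_c0_g3, and there its FPKM was still 1.80.

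**Figure D2:**
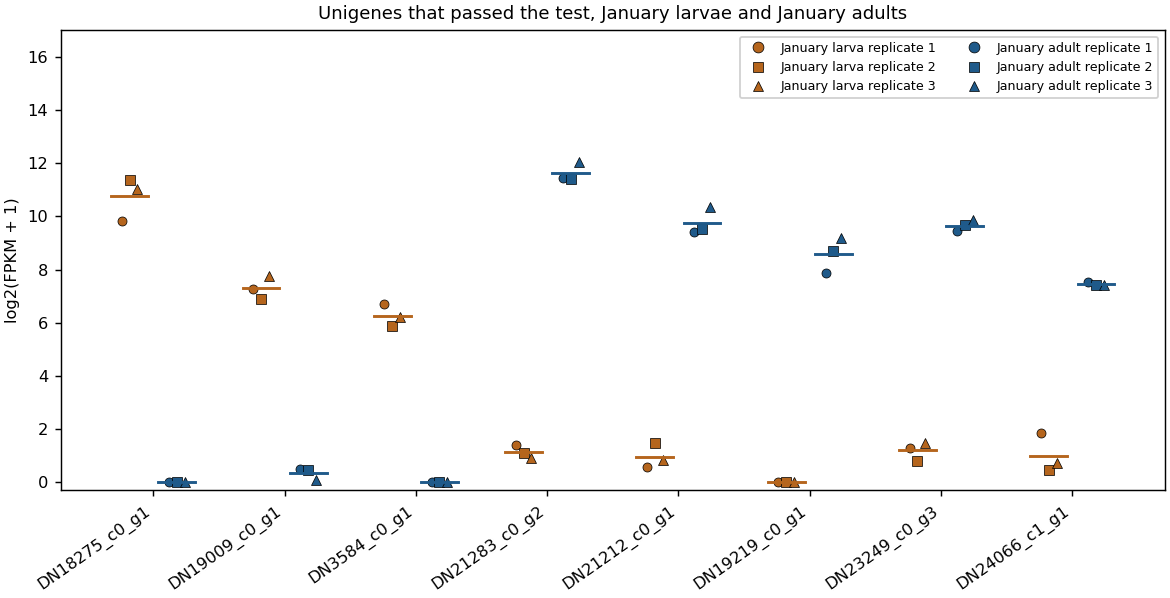
Expression of the 8 unigenes that differed between January larvae and January adults at an adjusted p under 0.01, as log2(FPKM + 1) on the vertical axis. Each marker is 1 insect, larvae left of adults, with the marker shape giving the replicate number. The 3 larval unigenes lie between 58.0 and 2668 FPKM in larvae and at or below 0.42 FPKM in adults, and the 5 adult unigenes lie at or below 2.58 FPKM in larvae.

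The number of differing unigenes turned on single libraries. Without larva 3 the count was 3301 (17.4%), of which 157 were higher in larvae (0.83%) and 3144 lower (16.6%), and all 8 unigenes were among them. The lean to lower was not seen in the 1379 Dendroctonus matches, where 25 passed, 18 higher and 7 lower. Of the 23 nematode matches tested 12 passed, all lower. Without larva 1 the count was 3, with 2 of the 8 kept, and without adult 3 it was 3, with 1 of the 8 kept. Without larva 2, adult 1 or adult 2 no unigene passed in limma, while 1427, 1576 and 1506 had an unadjusted p under 0.05. When the wider set of unigenes that larva 3 shares with the adults was left out, an alternative added after the values had been seen, 27 of 14511 unigenes passed (0.186%), 17 higher in larvae (0.117%) and 10 lower (0.0689%), the 8 included. With all 12 libraries in a single fit, which takes the spread from 4 groups, 235 passed (1.24%), 127 higher (0.671%) and 108 lower (0.571%), again with the 8 included.

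A looser threshold showed more larval transcripts. At an adjusted p under 0.05, 37 unigenes passed (0.196%), 24 higher in larvae (0.127%) and 13 lower (0.0687%). Of these, 4 appear in the annotation used here, 3 of them as predicted Dendroctonus ponderosae proteins with no assigned function and the other with no description. DN22255_c0_g1, a hypothetical protein, had 473, 5236 and 2813 FPKM in larvae 1, 2 and 3, against 0.22, 0.86 and 0.94 FPKM in adults 1, 2 and 3 (log2 fold change 10.17 ± 0.99, adjusted p = 0.0226, limma). DN21909_c1_g1, an uncharacterized protein, had 184, 116 and 192 FPKM in the larvae, against 17.8, 18.7 and 11.5 FPKM in the adults (log2 fold change 3.27 ± 0.37, adjusted p = 0.0356, limma). Both were expressed by every larva, and larva 1 was the lowest in the first and larva 2 in the second.

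DN24847_c0_g1, a further hypothetical protein, ran the other way at 0.20, 0.06 and 0.15 FPKM in the larvae, against 45.4, 81.5 and 14.1 FPKM in the adults (log2 fold change -5.10 ± 0.62, adjusted p = 0.0428, limma). DN27600_c1_g1, with no match, had 309, 446 and 438 FPKM in the larvae, against 27.2, 29.6 and 18.2 FPKM in the adults (log2 fold change 3.95 ± 0.41, adjusted p = 0.0277, limma). The 37 are not all separate genes. DN21283_c0_g1 comes from the same assembly cluster as DN21283_c0_g2 and had 0.52, 0 and 0.51 FPKM in the larvae, against 208, 139 and 359.96 FPKM in the adults. DN23351_c0_g4, listed at 0 in all adults and at 21.1, 22.3 and 23.8 FPKM in the larvae, shares its cluster with an elongase described below.

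Some unigenes were detected in 1 stage alone. An FPKM of at least 1 in all 3 larvae with 0 in all 3 adults was found for 93 unigenes, and the reverse pattern for 183. The typical unigene of these sets was weak, with a median of 3.51 FPKM in larvae for the first set and 3.15 FPKM in adults for the second. Only 1 of the 93 and 3 of the 183 have an entry in the annotation used here. The values rest on FPKM alone, and read numbers behind a value of 0 are not known.

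Among the gene lists, that of fatty acid modification had the highest median log2 fold change. Elongases lengthen fatty acyl chains, desaturases place double bonds in them, and fatty acyl-CoA reductases turn them into the alcohols and aldehydes from which waxes and hydrocarbons are made. The list holds 8 annotated unigenes, of which 7 were tested, and 5 of the 8 were picked by the study on the libraries used here, which makes the direction of the list no independent evidence. In 6 of the 7 the larvae lay wholly above the adults and in none below, where 7.87% and 7.83% of all tested unigenes did so. Among the 1379 Dendroctonus matches 168 lay wholly above and 60 wholly below. None of the 7 passed at an adjusted p of 0.01 or 0.05. Their median log2 fold change was 2.41, ranging from 0.29 to 3.64, beside a median of -0.38 over all tested unigenes and 0.00 over those with a Dendroctonus match. Without larva 3 the median of the list was 2.43.

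The acyl-CoA desaturase DN19691_c0_g1 had 166, 186 and 141 FPKM in larvae 1, 2 and 3, against 27.0, 42.5 and 23.3 FPKM in adults 1, 2 and 3. The larvae averaged 5.32 times the adults, with a log2 fold change of 2.41 ± 0.38 (SE, adjusted p = 0.0773, limma). With all 12 libraries in the fit its adjusted p was 0.00224, and with the wider set left out it was 0.0325. The study measured this transcript by quantitative PCR. Its primers are shown because they bound the stretch that the study amplified, while the FPKM given here belong to the whole unigene:
DN19691_c0_g1 forward primer: acgccactgacctggaaaat
DN19691_c0_g1 reverse primer: tcccagatgttgattgcgct

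The most abundant elongase, DN23125_c0_g1, had 917, 763 and 1138 FPKM in the larvae, against 90.8, 278 and 120.3 FPKM in the adults (log2 fold change 2.67 ± 0.44, adjusted p = 0.085, limma). A second elongase, DN23351_c0_g3, had 67.5, 109 and 85.7 FPKM in the larvae, against 13.3, 25.6 and 18.6 FPKM in the adults (log2 fold change 2.15 ± 0.49, adjusted p = 0.136, limma). In both, the 3 larvae lay close together and adult 2 was the highest adult. A weaker elongase, DN19294_c0_g1, did not separate the stages, at 1.31, 2.75 and 2.65 FPKM in the larvae, against 2.63, 1.82 and 0.85 FPKM in the adults.

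All 3 fatty acyl-CoA reductases lay higher in every larva than in any adult. The reductase 1-like DN24239_c0_g1 had 123, 12.1 and 43.8 FPKM in the larvae, against 1.55, 3.42 and 2.28 FPKM in the adults, the widest gap in means of the list at 24.6 times (log2 fold change 3.64 ± 0.75, adjusted p = 0.114, limma). The CG8306-like reductase DN27451_c2_g2 had 58.1, 49.8 and 51.0 FPKM in the larvae, against 6.56, 18.8 and 5.87 FPKM in the adults (log2 fold change 2.42 ± 0.46, adjusted p = 0.102, limma). The CG5065-like reductase DN22531_c0_g1 had 7.80, 10.02 and 9.10 FPKM in the larvae, against 1.47, 3.41 and 1.97 FPKM in the adults (log2 fold change 1.65 ± 0.56, adjusted p = 0.27, limma). Only the first of these reductases varied widely among larvae. The sphingolipid delta(4)-desaturase DN21248_c0_g2 was too weak to be tested. In the 12-library fit 2 of the 7 passed at an adjusted p under 0.01, the desaturase and elongase DN23125_c0_g1 (adjusted p = 0.00491, limma). In that fit 1.24% of all tested unigenes passed, and 15 of the 1379 Dendroctonus matches. Within the Dendroctonus matches alone, a fit added after the values had been seen, 5 of 6 passed at 0.05 and none at 0.01. Of the 1379 matches, 3.12% and 0.58% did.

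**Figure D3:**
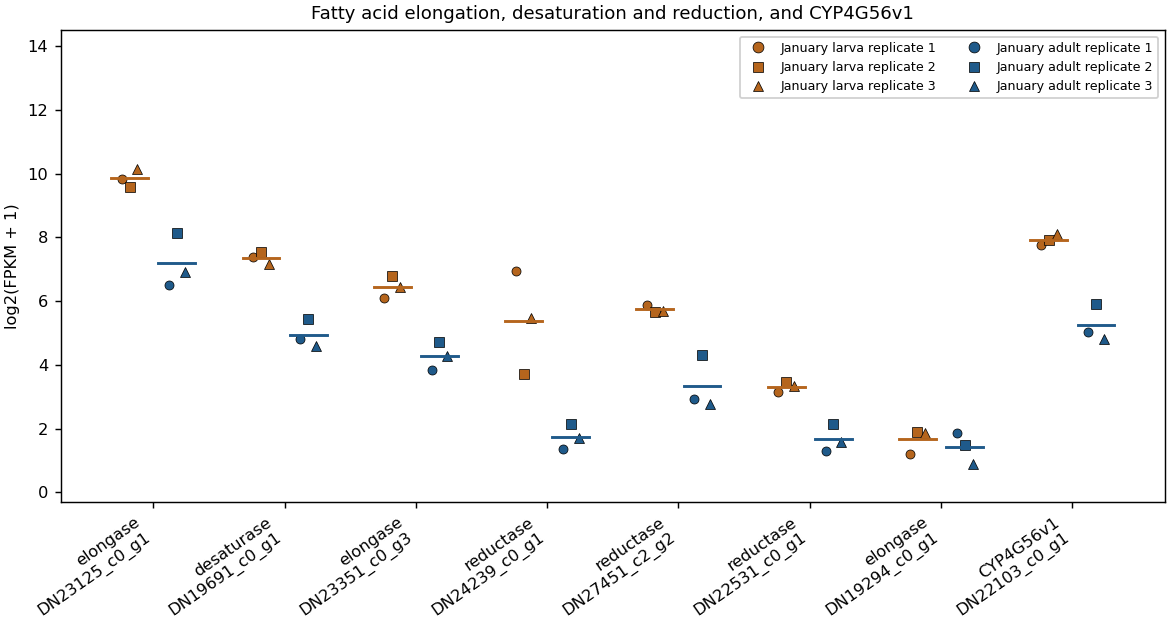
Expression of the 7 tested fatty acid unigenes and CYP4G56v1 in the 6 January libraries, as log2(FPKM + 1). Each marker is 1 insect, larvae left of adults, with the marker shape giving the replicate number. The desaturase DN19691_c0_g1 lies between 141 and 186 FPKM in larvae and between 23.3 and 42.5 FPKM in adults, and the elongase DN19294_c0_g1 overlaps between the stages.

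A P450 enzyme that acts after these steps showed a gap in the same direction. Insect CYP4G enzymes turn fatty aldehydes into cuticular hydrocarbons, the waterproof layer of the body surface. CYP4G56v1, DN22103_c0_g1, had 217, 239 and 274 FPKM in larvae 1, 2 and 3, against 31.7, 59.8 and 26.9 FPKM in adults 1, 2 and 3, and the larvae averaged 6.16 times the adults (log2 fold change 2.67 ± 0.39, adjusted p = 0.0758, limma). Its adjusted p was 0.00415 in the 12-library fit. It belongs to the list of detoxification enzymes, which also holds glutathione S-transferases, carboxylesterases and glucuronosyltransferases that bind or modify foreign compounds. Of 25 annotated members 17 were tested, 17 of the 25 had been picked by the study, and none passed at 0.01 or 0.05. In 5 of the 17 the larvae lay wholly above the adults and in none below, with a median log2 fold change of 0.82, beside 7.87% higher and 7.83% lower over all tested unigenes. Among the 1379 Dendroctonus matches 168 lay wholly higher in larvae and 60 wholly lower.

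The most abundant member was a glutathione S-transferase, DN20955_c0_g1, with 1743, 414 and 519 FPKM in the larvae, against 219, 344 and 181 FPKM in the adults (log2 fold change 1.59 ± 0.47, adjusted p = 0.243, limma). Larva 1 was far above the rest and the remaining larvae were close to adult 2. The P450 4c3-like DN24057_c1_g2 had 5.17, 5.41 and 2.09 FPKM in the larvae, against 0.14, 0.29 and 0.45 FPKM in the adults (log2 fold change 1.93 ± 0.48, adjusted p = 0.168, limma).

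The next 4 unigenes belong to no list and were picked after their values were seen, for high larval values, so their shared direction is set by the choice. The lipase DN21238_c0_g2, matched to pancreatic triacylglycerol lipase, an enzyme that frees fatty acids from triglycerides in mammals, had 12.3, 14.4 and 28.4 FPKM in the larvae, against 0.45, 0.95 and 1.05 FPKM in the adults (log2 fold change 3.33 ± 0.62, adjusted p = 0.0972, limma). A unigene matched to 15-hydroxyprostaglandin dehydrogenase, DN22250_c0_g1, had 222, 397 and 314 FPKM in the larvae, against 1.74, 29.8 and 26.6 FPKM in the adults (log2 fold change 4.51 ± 0.99, adjusted p = 0.128, limma). Neither passed the test, and in both the stages did not overlap. A pair of unigenes matched to TMEM135, a peroxisomal membrane protein in mammals, came from a common cluster. DN23038_c0_g1 had 50.9, 38.8 and 44.3 FPKM in the larvae, against 0, 4.5 and 0.92 FPKM in the adults (log2 fold change 4.39 ± 0.66, adjusted p = 0.0758, limma). DN23038_c0_g2 had 11.6, 4.45 and 13.8 FPKM in the larvae, against 0.14, 0.60 and 0 FPKM in the adults (log2 fold change 3.08 ± 0.55, adjusted p = 0.0909, limma).

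Trehalose is the main blood sugar of insects, and Tret1 proteins carry it out of the fat body and into other cells. The Tret1 match DN23651_c0_g1 had 12.6, 18.2 and 7.57 FPKM in larvae 1, 2 and 3, against 0.03, 1.82 and 0.17 FPKM in adults 1, 2 and 3 (log2 fold change 3.18 ± 0.65, adjusted p = 0.114, limma). Another trehalose transporter, DN25186_c0_g1, had 3.37, 3.17 and 4.13 FPKM in the larvae, against 0.05, 0.12 and 2.34 FPKM in the adults (log2 fold change 1.44 ± 0.65, adjusted p = 0.27, limma). The gap was narrow in the second because adult 3 lay near the larvae. Of the 10 sugar transporters tested, 3 lay wholly higher in larvae and none lower, beside 7.87% and 7.83% of all tested unigenes, with a median log2 fold change of 0.56, and none passed at 0.01 or 0.05. All 10 are Dendroctonus matches, and of the 1379 such matches 168 lay wholly higher and 60 wholly lower.

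The cuticle list held members on both sides, with LCP-17 and a pupal cuticle protein wholly higher in larvae and a chitinase and a beta-N-acetylglucosaminidase wholly lower. Cuticle proteins bind chitin in the body wall and are specific to stage. Of the 9 members tested 2 lay wholly higher in larvae and 2 wholly lower, with a median log2 fold change of 0.25. Over all tested unigenes 7.87% and 7.83% did so, and 168 and 60 of the 1379 Dendroctonus matches. None of the 9 passed at 0.01 or 0.05. In the 12-library fit 2 of the 9 passed at an adjusted p under 0.01, where 1.24% of all tested unigenes did. Within the Dendroctonus matches alone, 1 of 8 passed at 0.01 and 4 at 0.05, where 0.58% and 3.12% of the 1379 did. Larval cuticle protein LCP-17, DN12641_c0_g1, served as the marker of the larval stage. It had 39.9, 87.2 and 46.8 FPKM in the larvae, against 1.30, 2.12 and 1.89 FPKM in the adults (log2 fold change 4.33 ± 0.59, adjusted p = 0.0652, limma). The larvae averaged 32.7 times the adults, and larva 3 had a larval level. The pupal cuticle protein 36-like DN17443_c0_g1 had 5.16, 7.56 and 6.30 FPKM in the larvae, against 0, 0 and 0.11 FPKM in the adults (log2 fold change 2.804 ± 0.46, adjusted p = 0.085, limma).

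Chitinase breaks chitin into short chains and beta-N-acetylglucosaminidase splits those chains into single sugars. The chitinase DN19094_c0_g1 had 0, 0 and 0.41 FPKM in the larvae, against 459, 207 and 9.21 FPKM in the adults (log2 fold change -6.45 ± 1.23, adjusted p = 0.101, limma). The beta-N-acetylglucosaminidase DN20829_c0_g1 had 12.1, 11.5 and 6.54 FPKM in the larvae, against 41.7, 135.4 and 86.8 FPKM in the adults (log2 fold change -2.90 ± 0.55, adjusted p = 0.102, limma). Adult 3 was far below the other adults in the chitinase but not in the second enzyme, and every adult lay above every larva in both.

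Other stage markers were less clear. The unigene matched to adult-specific rigid cuticular protein, DN17968_c0_g1, had 3.86, 5.64 and 2.27 FPKM in larvae 1, 2 and 3, against 0, 1.54 and 2.51 FPKM in adults 1, 2 and 3, so its name did not hold in these libraries. Larval cuticle protein 8-like, DN20921_c0_g5, had 1.6, 0 and 0 FPKM in the larvae, against 2.20, 1.57 and 0 FPKM in the adults. The vitellogenin receptor DN25457_c0_g1, which takes yolk protein into the egg and so marks ovaries, had 0.53, 0.99 and 0.79 FPKM in the larvae, against 92.3, 82.8 and 0.26 FPKM in the adults. It reached an FPKM of 1 in too few libraries to be tested. Adult 3 was thus at the larval level for it, and the sex of that adult is not given. Of 7 odorant and gustatory receptors, which adults use to find hosts and mates, 2 were tested and neither separated the stages.

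A muscle actin was the most strongly adult member of the muscle list. DN22247_c2_g1 had 0.31, 0.25 and 0.18 FPKM in the larvae, against 210.1, 165 and 19.98 FPKM in the adults (log2 fold change -6.18 ± 0.80, adjusted p = 0.0539, limma). In the 12-library fit its adjusted p was 0.000407. The rest of the list did not follow it. Troponin I, DN26658_c1_g1, the inhibitory subunit of the thin filament, had 1455, 897 and 2083 FPKM in the larvae, against 372, 1276 and 1529 FPKM in the adults. Of 7 muscle members tested 1 lay wholly lower in larvae and none higher, with a median log2 fold change of 0.12, and none passed at 0.01 or 0.05. Over all tested unigenes 7.83% lay wholly lower and 7.87% wholly higher.

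The next 5 unigenes also belong to no list and were picked after their values were seen, 4 for low and 1 for high larval values. C-type lectins bind sugars on microbial surfaces. The tetranectin-like DN17570_c0_g1 had 0, 0.25 and 0 FPKM in the larvae, against 10.4, 22.01 and 13.6 FPKM in the adults (log2 fold change -3.84 ± 0.53, adjusted p = 0.0673, limma). The collectin-10-like DN18079_c0_g1 was listed at 0 in every larva and had 6.65, 20.6 and 10.1 FPKM in the adults (adjusted p = 0.0758, limma). In both, adult 2 was the highest and adult 1 the lowest adult. Glucose dehydrogenase, DN26083_c0_g1, had 0.15, 0.29 and 0.19 FPKM in the larvae, against 5.43, 4.98 and 4.27 FPKM in the adults (log2 fold change -2.27 ± 0.42, adjusted p = 0.0952, limma). CAP-Gly domain-containing linker protein 1, DN25739_c1_g1, which binds the growing ends of microtubules, had 2.02, 1.34 and 2.85 FPKM in the larvae, against 28.1, 23.2 and 10.7 FPKM in the adults (log2 fold change -2.75 ± 0.54, adjusted p = 0.106, limma). The artichoke-like protein DN20899_c0_g1, a leucine-rich repeat protein in Drosophila, ran the other way at 24.6, 14.6 and 17.6 FPKM in the larvae, against 0.17, 1.86 and 0.64 FPKM in the adults (log2 fold change 3.48 ± 0.55, adjusted p = 0.0773, limma).

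Cellulases and myrosinase-type enzymes did not separate the stages in January. Endoglucanases and exoglucanases cut cellulose, and myrosinase-type beta-glucosidases release sugars and defence compounds from glucosides. All 9 and all 10 annotated members of these lists had been picked by the study. Of the 5 plant cell wall enzymes and 6 myrosinase-type enzymes tested, none passed at 0.01 or 0.05 and none had stages that did not overlap, with median log2 fold changes of -0.84 in each list. Endoglucanase DN22700_c3_g2 had 6.03, 69.5 and 2.70 FPKM in the larvae, against 5.54, 27.3 and 25.9 FPKM in the adults. Myrosinase DN22028_c0_g1 had 0.80, 17.2 and 7.29 FPKM in the larvae, against 10.96, 35.1 and 6.92 FPKM in the adults. In both, insect 2 was the highest of its stage. Of 10 other sugar hydrolases tested, 2 lay wholly higher in larvae and 2 wholly lower (median log2 fold change -0.43), and none passed at 0.01 or 0.05. Of all tested unigenes 7.87% lay wholly higher and 7.83% wholly lower, and of the 1379 Dendroctonus matches 168 and 60. Over the 3 lists together, larva 2 was the highest larva for 16 of 21 tested unigenes and adult 2 the highest adult for 18 of 21. Larva 2 was the highest larva for 2909 and adult 2 the highest adult for 6108 of all 18917 unigenes.

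No protease passed the test, and the separated ones are given as values. Of 20 tested, 6 lay wholly higher in larvae and none lower, beside 7.87% and 7.83% of all tested unigenes and 168 and 60 of the 1379 Dendroctonus matches, with a median log2 fold change of 0.27. Cathepsin L, a cysteine protease of the gut in many beetles, gave the widest gaps. DN19794_c0_g1 had 2.26, 58.8 and 8.28 FPKM in the larvae, against 0.12, 0.19 and 0.43 FPKM in the adults (log2 fold change 3.30 ± 1.14, adjusted p = 0.27, limma). DN21836_c0_g2 had 33.9, 90.0 and 30.9 FPKM in the larvae, against 2.3, 15.6 and 7.15 FPKM in the adults (log2 fold change 2.61 ± 0.78, adjusted p = 0.243, limma). Larva 2 was again the highest larva in both. A serine protease matched to Hayan, which acts in the melanization response of Drosophila, DN26906_c0_g1, had 30.8, 11.3 and 17.6 FPKM in the larvae, against 1.87, 5.52 and 5.08 FPKM in the adults (log2 fold change 1.99 ± 0.59, adjusted p = 0.243, limma).

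In the remaining lists most members overlapped between the stages, and none passed at 0.01 or 0.05. Over all tested unigenes 7.87% lay wholly higher in larvae and 7.83% wholly lower, and most of the counts that follow are 0 or 1. No heat shock protein of 7 tested separated the stages (median log2 fold change 0.05), and neither did any of 15 transposable elements (median 0.35). Of 12 ribosomal proteins 1 lay wholly higher in larvae (median 0.34), and of 11 respiratory chain and ATP synthase subunits 1 lay higher and 1 lower (median 0.30). Of 12 cell division genes 1 lay lower (median -0.19), of 28 zinc finger proteins 1 lay higher and 3 lower (median -0.45), and of 6 hormone signalling genes 1 lay lower (median 0.51). Of 11 nervous system genes the synaptic vesicular amine transporter DN19178_c0_g1, which loads amine transmitters into vesicles, lay lower, at 1.6, 0.30 and 1.19 FPKM in the larvae, against 3.91, 8.54 and 15.3 FPKM in the adults. Odorant binding protein 18, DN17671_c0_g1, was the single separated member of 3 smell and taste genes and lay higher, at 56.9, 13.4 and 17.1 FPKM in the larvae, against 1.70, 0 and 7.02 FPKM in the adults. Of 4 homeobox factors the retinal homeobox match DN24072_c0_g3 lay higher, at 2.95, 2.53 and 1.52 FPKM in the larvae, against 0.08, 0 and 0 FPKM in the adults.

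The nematode matches gave the lowest median of the lists, at a log2 fold change of -2.21 over 23 tested. Their heat shock protein 90, DN20846_c0_g2, had 0, 1.51 and 113 FPKM in larvae 1, 2 and 3, against 304, 207 and 119 FPKM in adults 1, 2 and 3. This unigene was absent from larva 1 and at an adult level in larva 3. With the wider set left out, 6 nematode matches remained and their median was 0.68. That set was chosen for near-absence in larva 1, so leaving it out removes members with low larval values. The rise of the median is set by that choice. Over the 17 vertebrate matches tested the median was -0.45, with 3 wholly higher in larvae and 3 lower, beside 7.87% and 7.83% of all tested unigenes. The summed FPKM of all 119 vertebrate matches was 507, 208 and 241 in the larvae, against 254, 169.7 and 173 in the adults. The part of either organism in the single values was not tested.

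**Figure D4:**
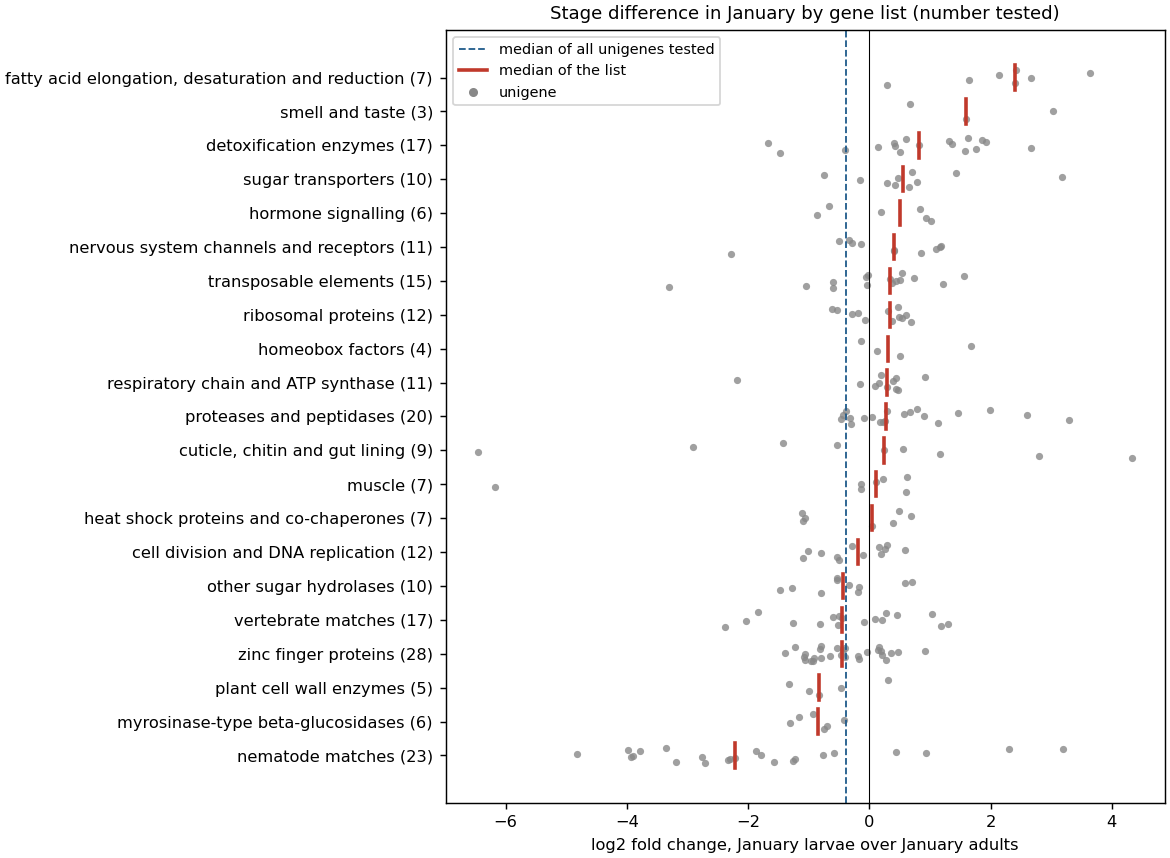
Log2 fold change of each tested list member, January larvae over January adults, by gene list, with the number tested in brackets. Grey points are unigenes, red bars list medians, and the dashed line the median of all 18917 unigenes, -0.38. The fatty acid list has the highest median, 2.41, and the nematode matches the lowest, -2.21.

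The study followed 14 unigenes by quantitative PCR, picked for their change between months. In January 3 of them lay wholly higher in larvae and 1 wholly lower, beside 7.87% and 7.83% of all tested unigenes. The other 10 overlapped between the stages, and none of the 14 passed at 0.01 or 0.05. Besides the desaturase, the higher ones were DN20229_c0_g1, an uncharacterized protein, and DN21780_c1_g1, fructose-1,6-bisphosphatase 1, an enzyme of glucose synthesis. DN20229_c0_g1 had 2967, 17425 and 4556 FPKM in larvae 1, 2 and 3, against 42.9, 390.1 and 76.4 FPKM in adults 1, 2 and 3 (log2 fold change 5.81 ± 0.98, adjusted p = 0.085, limma). Number 2 was the highest insect of each stage. DN21780_c1_g1 had 91.3, 32.1 and 44.9 FPKM in the larvae, against 12.4, 31.2 and 22.8 FPKM in the adults (log2 fold change 1.25 ± 0.50, adjusted p = 0.27, limma), with larva 2 barely above adult 2. The lower one was DN22439_c0_g5, a second uncharacterized protein, with 977, 825 and 353 FPKM in the larvae, against 1540.2, 3744 and 1985 FPKM in the adults (log2 fold change -1.78 ± 0.50, adjusted p = 0.218, limma). The primers for these uncharacterized proteins are given because they identify transcripts that have no functional name:
DN20229_c0_g1 forward primer: tgcagtggagattggagcag
DN20229_c0_g1 reverse primer: tgttgacgccattagccact
DN22439_c0_g5 forward primer: ctgcggaaatcgaatctggc
DN22439_c0_g5 reverse primer: gtcttggggagttgggacag

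Values follow for some of the overlapping ones. Glutamate synthase, DN27207_c0_g1, which makes glutamate from glutamine, had 61.8, 40.2 and 41.2 FPKM in the larvae, against 38.2, 37.8 and 56.1 FPKM in the adults. ATP synthase subunit alpha, DN18757_c0_g2, part of the mitochondrial enzyme that makes ATP, had 604, 375 and 359 FPKM in the larvae, against 283, 403 and 286 FPKM in the adults. Glyceraldehyde-3-phosphate dehydrogenase, DN22610_c0_g2, a glycolytic enzyme, had 411, 172 and 204 FPKM in the larvae, against 207, 261 and 196 FPKM in the adults. In these 3 the difference between stages was smaller than the spread between insects. DN27537_c0_g1, of unknown function, was abundant in every January insect, with 3188, 3613 and 2139 FPKM in the larvae, against 1108, 3388 and 1133 FPKM in the adults.

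A few very abundant unigenes took a large part of each library. The 20 unigenes with the highest mean FPKM over the 6 libraries were taken as a fixed set, not the top 20 of each library. With the left-out unigenes not in the sum, they held 27.6%, 37.2% and 24.8% of the FPKM in larvae 1, 2 and 3. They held 13.5%, 17.8% and 29.7% in adults 1, 2 and 3 (exact permutation p = 0.3, two-sided). The most abundant unigene of both stages, DN19707_c2_g1, had 83942, 81984 and 55422 FPKM in the larvae, against 47706, 53165 and 141875 FPKM in the adults. The 3rd of the larvae, DN24926_c0_g1, had 13905, 45040.1 and 21911 FPKM in the larvae, against 2510.5, 1354 and 4232 FPKM in the adults (log2 fold change 3.29 ± 0.80, adjusted p = 0.155, limma). Neither has a match in the annotation used here, and only the second kept the stages apart. The larval top 5 also held DN21735_c1_g3, DN21877_c2_g2 and DN27726_c4_g1, each wholly higher in larvae and none past the test.

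Among the adults the most abundant unigenes were often those of a single insect. DN19837_c0_g1, a hypothetical protein of D. ponderosae, had 0.80, 0.11 and 0 FPKM in the larvae, against 2.27, 1.24 and 39784 FPKM in the adults. DN19293_c0_g1 had 4.06, 0.79 and 0.29 FPKM in the larvae, against 1.80, 0.82 and 34098 FPKM in the adults. In both, adult 3 alone held the high value and the other 5 insects were at or below 4.06 FPKM. DN19147_c0_g1 had 55.9, 9214 and 57.0 FPKM in the larvae, against 1953, 27187 and 7665 FPKM in the adults, with the highest value of each stage in insect 2. DN20328_c0_g1 had 12961, 11331 and 13110.2 FPKM in the larvae, against 6994, 8979 and 13291 FPKM in the adults, and did not separate the stages.

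The May libraries, 3 larvae and 3 adults that share no library with January, put the stages in the same order for most of these unigenes. Of the 24 unigenes higher in January larvae at an adjusted p under 0.05, 17 (70.8%) were wholly higher in May larvae too, and of the 13 lower in January larvae all 13 were wholly lower. Over all 18917 unigenes 8.3% were wholly higher and 37.9% wholly lower in May larvae. The size of the gap was not always the same. The January minus May difference passed the test described below for 11 of the 24 and 4 of the 13, beside 3.49% of all 23348 unigenes in that test. DN18275_c0_g1 had 26456, 25109 and 31348 FPKM in May larvae, against 0, 0 and 0.66 FPKM in May adults. DN21283_c0_g2 was listed at 0 in all May larvae, against 1044, 1449 and 1018 FPKM in May adults. Both were high in the same stage as in January.

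A few larval unigenes of January were under 1 FPKM in May. DN3584_c0_g1, DN14772_c0_g1, DN21016_c0_g2, DN26313_c0_g1 and DN4931_c0_g1 had an FPKM under 1 in all 6 May libraries, and all were listed at 0 in every January adult. DN14772_c0_g1 had 50.9, 40.2 and 23.1 FPKM in January larvae (adjusted p = 0.0277, limma), and DN26313_c0_g1 had 26.5, 19.98 and 22.4 FPKM (adjusted p = 0.0322, limma). DN21016_c0_g2 had 21.3, 19.8 and 16.5 FPKM (adjusted p = 0.038, limma), and DN4931_c0_g1 had 18.3, 14.1 and 11.2 FPKM (adjusted p = 0.0465, limma). All 3 January larvae expressed each of them. Of the 93 unigenes found in every January larva and listed at 0 in every January adult, 63 were listed at 0 in all 6 May libraries and 5 reached an FPKM of 1 in all May larvae. Of the 183 found only in January adults, 76 were listed at 0 in all May libraries and 39 reached 1 in all May adults. The typical unigene of both sets was weak, and the share of equally weak unigenes at 0 in May was not determined. These counts therefore do not show expression particular to January.

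The fatty acid genes kept their direction in part. In May 4 of the 7 lay wholly higher in larvae and 1 wholly lower. Over all 18917 unigenes 8.3% and 37.9% did so in May, and 229 and 690 of the 1379 Dendroctonus matches. The desaturase DN19691_c0_g1 had 423, 344 and 329 FPKM in May larvae, against 74.8, 102 and 68.7 FPKM in May adults. CYP4G56v1, DN22103_c0_g1, had 2103, 2148 and 1084 FPKM in May larvae, against 229, 350.1 and 161 FPKM in May adults. The January minus May difference of the stage gap did not pass the test for either, at -1.16 ± 0.44 for the desaturase (SE, adjusted p = 0.121, limma) and -1.59 ± 0.54 for CYP4G56v1 (adjusted p = 0.0847, limma). The weak elongase DN19294_c0_g1 was the one that lay lower, at 0.07, 1.36 and 0.61 FPKM in May larvae, against 2.62, 15.4 and 9.92 FPKM in May adults.

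Whether a stage difference was particular to January was tested as the January difference minus the May difference over all 12 libraries. At an adjusted p under 0.01 and a difference of at least 1 on the log2 scale, 816 of 23348 unigenes passed (3.49%), 327 positive (1.4%) and 489 negative (2.09%). This split was not stable. FPKM as deposited gave 769, of which 680 were positive and 89 negative, 88.4% positive against 40.1%, and a pseudocount of 0.1 gave 587 positive and 585 negative. Positive ones were also in the majority without May adult 2, at 332 against 265, and without May adult 3, at 78 against 68. The count was 419, 380 and 465 without January larva 1, 2 or 3, 350 without January adult 2, 260, 531 and 365 without May larva 1, 2 or 3, and 270 and 146 without May adult 1 or 3. Beta-N-acetylglucosaminidase, DN20829_c0_g1, lower in January larvae, turned round in May at 57.1, 47.4 and 375 FPKM in larvae, against 2.31, 0.75 and 0.23 FPKM in adults, a January minus May difference of -9.77 ± 1.10 (SE, adjusted p = 0.00142, limma). DN22439_c0_g5 did the same, at 3747, 1214 and 3494 FPKM in May larvae, against 50.6, 28.1 and 23.0 FPKM in May adults (-9.42 ± 0.89, adjusted p = 0.00131, limma). The chitinase DN19094_c0_g1 had 0.93, 2.79 and 2.3 FPKM in May larvae, against 2.88, 1.38 and 0.38 FPKM in May adults, so its gap was found in January only (-7.32 ± 1.40, adjusted p = 0.00936, limma). Muscle actin DN22247_c2_g1 had 0.08, 0.18 and 0 FPKM in May larvae, against 3081, 3407 and 4796 FPKM in May adults, a wider gap than in January (5.42 ± 0.82, adjusted p = 0.00367, limma).

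**Figure D5:**
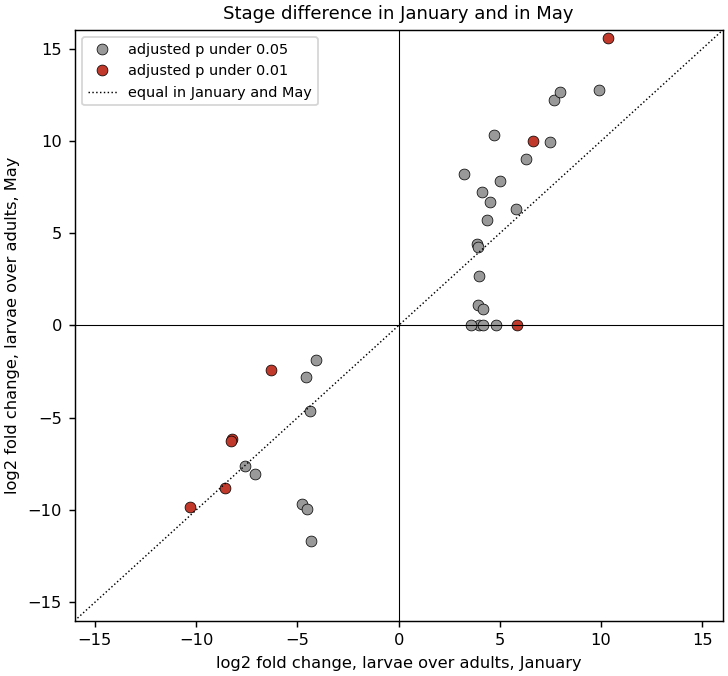
Stage difference of the 37 unigenes that passed at an adjusted p under 0.05 in January, as log2 fold change of larvae over adults in January (horizontal) and in May (vertical), both from the fit of all 12 libraries. Points are unigenes, red those under 0.01, and the dotted line marks equal differences. All 13 unigenes that are lower in January larvae are lower in May, and 5 of the 24 higher ones lie near 0 in May.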

How the data were processed

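RNA from single whole insects was sequenced as poly(A) libraries. The authors assembled the reads without a genome, placed them on the unigenes with Bowtie2 2.3.5.1 and quantified them with RSEM 1.2.31, with CASAVA also named in the submitters' processing notes. The deposited values are FPKM, 1 per unigene and library. Read numbers are not kept in FPKM, so the depth behind a value is unknown and precision comes from the spread between insects.

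From these values, FPKM of each library were divided by a median-of-ratios size factor (1.26, 0.829 and 0.958 for larvae, 1.03, 1.29 and 0.746 for adults) and turned into log2(FPKM + 1), a scale that understates the change of weak unigenes. FPKM printed per insect are as deposited. Unigenes were left out that had an FPKM of at least 1 in January larva 3 and May larva 1 and under 0.1 in the other 4 larvae, since they may be of another organism. Of 23533 unigenes past the filter 4616 were left out in this way. The 6 January libraries were fitted with limma 3.58.1 with trend in R 4.3.3, two-sided, with Benjamini-Hochberg adjustment over 18917 unigenes, and a unigene was called where the adjusted p was under 0.01 and the log2 fold change reached 1 in either direction. The difference between January and May was fitted over all 12 libraries. Library-level values were tested by exact permutation in SciPy 1.17.1. The fit was tested on simulated data.

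The labels give no pairing of insects by replicate number, so no block was used. Alternatives were other scalings, a pseudocount of 0.1, other filters, a replicate block, all 12 libraries and each library left out. The fits without the wider set and of the Dendroctonus matches alone were added after the values had been seen.

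Names come from 2652 unigenes of the study's annotation, of which 1682 were tested. The rule named called unigenes with a named match, of which there were none, then list members, the 14 quantitative PCR unigenes and the 5 most abundant of each stage. All other unigenes named, the 8 called ones included, were chosen after their values were seen. The members and lists were chosen with earlier results of these data known. Fold changes and p-values of the study were not used.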

Additional observations from a re-analysis of the deposited data

Results flagged for a closer look

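The difference between the January and the May stage gap passed the test for 816 unigenes, and the named ones among them follow, each as the January minus May difference on the log2 scale, with larva minus adult in each month. The causes were not tested.

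Among the unigenes that separated the stages in January, the difference was -5.23 for DN18275_c0_g1, -3.33 for DN19009_c0_g1, 5.87 for DN3584_c0_g1 and -3.91 for DN24066_c1_g1. Thus DN18275_c0_g1 and DN19009_c0_g1 had a wider gap in May, and DN3584_c0_g1 had none there. At the looser threshold it was -4.96 for DN21909_c1_g1, 4.90 for DN24847_c0_g1, 4.83 for DN14772_c0_g1, 3.95 for DN21016_c0_g2, 4.19 for DN26313_c0_g1 and 3.56 for DN4931_c0_g1. The last 4 are larval unigenes of January that were listed at 0 in every May library.

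Chitinase DN19094_c0_g1 gave -7.32 and beta-N-acetylglucosaminidase DN20829_c0_g1 gave -9.77, both lower in January larvae than in January adults. Muscle actin DN22247_c2_g1 gave 5.42, since its gap was wider in May. Among the quantitative PCR unigenes DN20229_c0_g1 gave -9.28, DN22439_c0_g5 gave -9.42 and glutamate synthase DN27207_c0_g1 gave 3.25. Glutamate synthase did not separate the stages in January and had 1.82, 2.85 and 1.65 FPKM in May larvae, against 46.2, 86.7 and 49.1 FPKM in May adults.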

How the results depend on the processing

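Against 8 unigenes, the January count was 17 with FPKM as deposited, 14 with equal sums without the 20 most abundant unigenes, 4 with a pseudocount of 0.1, 5 with no filter on low values, 235 in the 12-library fit, 27 with the wider set left out and 37 at an adjusted p under 0.05. It was 0 where all 6 libraries had to reach an FPKM of 1 (8499 tested, 1039 at an unadjusted p under 0.05, limma), and the 8 unigenes were not among those tested. The replicate number as a block also gave 0 (2690 at an unadjusted p under 0.05, limma). Leaving out a library in turn gave 0 to 3301. Same-numbered insects deviated together at r = -0.13, 0.12 and -0.08, and insects of unlike number at -0.21 to 0.22. So few correlations cannot decide whether the numbers pair insects. The count of unigenes whose gap differed between months, 816, was 1274 with the wider set left out, 196 with the replicate block and 146 to 773 with a library left out, the lowest without May adult 3. For 40 named unigenes, 637 values under other settings all kept their direction, with 55 calls gained and 54 lost. Many of these unigenes were named for stages that lay apart. A change of direction was unlikely for them, so the kept direction is weak evidence. Where the cause of a change is not in the setting itself, the cause was not tested. Read numbers are unknown, and 3 insects of a stage limit every test.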
